A study of Mus musculus with 3 samples.

Results

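The genes that build the tight junctions, desmosomes and simple keratin filaments of epithelial sheets were followed across the murine colon adenocarcinoma line Colon26 and a pair of its sublines. The 36 genes comprised 16 claudins, 7 further tight junction proteins, 8 desmosome proteins and 5 simple keratins. They were chosen by name, and a probe was assigned to a gene where the transcript accession given for the probe in the array files matched a RefSeq symbol (assembly GRCm38.p6). All 36 had a probe, and 47 probes in all, among 22911 genes that could be named in this way.

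The 3 arrays held 1 RNA sample each. Colon26 is the parental line, from BALB/c mice. LuM1 is its rapidly metastatic subline, labelled as having a high metastatic potential, and NM11 its slowly metastatic subline, labelled as low. The lines were kept in the same medium, RPMI1640 with serum and antibiotics, in ordinary two-dimensional dishes with no further agent, and RNA was taken after 3 days. From 0.1 µg of total RNA, a Cy3-labelled copy RNA was hybridised to a 1-colour Agilent mouse array. With 1 array per line there was no replicate and no test of any difference. Each ± below is the scanner's own error for a spot, which covers neither culture nor labelling. Precision is limited throughout by how few arrays there were. In RNA from a whole culture, fewer cells that use a gene and less RNA in each of them cannot be told apart.

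Tight junctions seal the space between neighbouring epithelial cells: claudins form the strands, occludin and its relatives sit among them, and zonula occludens proteins tie them to the actin cytoskeleton. Desmosomes hold cells together through cadherins of the desmoglein and desmocollin families, which plakoglobin, plakophilins and desmoplakin link to keratin filaments. Simple epithelia, the lining of the colon among them, are known for filaments of keratins 8, 18, 19 and 20, in which a type II keratin (7 or 8) pairs with a type I keratin (18, 19 or 20).

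For 26 of the 36 genes RefSeq promoter sequences (GRCm38.p6) could be read. The 250 bases before the transcription start are shown for 4 of the genes that differed at least 2-fold between the lines, picked after their values were seen: *F11r* and *Krt8*, which were higher in LuM1, and *Cldn6* and *Krt20*, which were higher in Colon26. *Cldn9*, *Pkp2*, *Pkp3* and *Dsc2* had no entry. Each is written 5′ to 3′ on the gene's own strand, and capitals mark 3 searched motifs on either strand: the E-box, with the letters CACCTG and known as the site of Snail and Zeb family repressors, the GC box, with the letters GGGCGG, and the TATA box, with the letters TATAAA.

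*F11r*, chr1:171437311-171437560, plus strand: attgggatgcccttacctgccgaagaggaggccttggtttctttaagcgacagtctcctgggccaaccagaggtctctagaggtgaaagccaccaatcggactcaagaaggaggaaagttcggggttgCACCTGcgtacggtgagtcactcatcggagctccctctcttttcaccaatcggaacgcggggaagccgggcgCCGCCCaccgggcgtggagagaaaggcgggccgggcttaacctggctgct
*Krt8*, chr15:102004343-102004592, minus strand: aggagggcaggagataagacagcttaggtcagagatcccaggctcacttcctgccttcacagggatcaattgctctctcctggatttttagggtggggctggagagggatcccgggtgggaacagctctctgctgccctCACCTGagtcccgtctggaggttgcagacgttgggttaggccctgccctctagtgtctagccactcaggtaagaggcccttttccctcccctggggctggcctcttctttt
*Cldn6*, chr17:23679115-23679364, plus strand: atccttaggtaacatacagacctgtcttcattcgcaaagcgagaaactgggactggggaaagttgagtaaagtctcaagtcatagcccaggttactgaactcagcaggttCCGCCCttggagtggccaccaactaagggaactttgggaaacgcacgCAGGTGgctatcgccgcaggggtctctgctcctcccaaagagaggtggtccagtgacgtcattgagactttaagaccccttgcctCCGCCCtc
*Krt20*, chr11:99438154-99438403, minus strand: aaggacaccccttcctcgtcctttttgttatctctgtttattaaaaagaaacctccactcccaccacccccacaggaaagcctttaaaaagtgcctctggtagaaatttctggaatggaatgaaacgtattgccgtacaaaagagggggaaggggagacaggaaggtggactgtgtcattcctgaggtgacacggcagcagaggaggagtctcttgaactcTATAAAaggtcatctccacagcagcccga

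The E-box stood in *F11r*, *Krt8* and *Cldn6*, beginning 122, 111 and 93 bases before the start. Of the 37 promoters of the 26 genes, 12 held it, in 11 genes, and 17.2% of all 32851 promoters of this length did. *Krt20* held a TATA box beginning 29 bases before the start. The TATA box was found in 4 of the 37 promoters (those of *Cldn2*, *Krt20* and *Marveld2*) and in 12.4% of all promoters, and the GC box in 21 of the 37 and 32.7%. Promoters of 1 gene can overlap and count the same motif again. Those of *Marveld2* hold the same TATA motif, on the opposite strand, 223 and 250 bases before their starts. Among the genes described below, the E-box was present both in some that were higher in LuM1 (*F11r* and *Krt8*) and in some that were lower (*Cldn6* and, in 1 of its promoters, *Pkp4*). The median promoter of the 26 genes held 10 CpG pairs and 59.6% G and C, against 6 and 52.4% over all promoters.

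The scanner software flags a spot as well above background or not, and a gene was taken as measured where its brightest probe carried this flag. Fewer of the 36 genes were measured than of all genes. In Colon26 15 were measured (41.7%, against 56.9% of all named genes), in LuM1 14 (38.9%, against 59.9%) and in NM11 14 (38.9%, against 59.1%). Of the 36, 12 were measured on all 3 arrays, 7 on 1 or 2 of them and 17 on none. Of all 22911 named genes, 12249 were measured on all 3 arrays, 2579 on 1 or 2 and 8083 on none. The claudins contributed 7, 6 and 7 of 16 in Colon26, LuM1 and NM11, the other tight junction genes 2, 3 and 3 of 7, the desmosome genes 4, 3 and 2 of 8, and the keratins 2 in each line.

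The 17 genes measured in no line included core parts of each structure. They were *Cldn1*, *Cldn2*, *Cldn3*, *Cldn4*, *Cldn5*, *Cldn8*, *Cldn10* and *Cldn23*, the strand proteins *Ocln* (occludin) and *Marveld3*, the tight junction adaptor *Cgn* (cingulin), the desmosomal cadherin *Dsg2*, the keratin anchor *Dsp* (desmoplakin), the plakophilin *Pkp1*, and the keratins *Krt7*, *Krt18* and *Krt19*. Their signals, after scaling of each array to the same 75th percentile, ran from 3.87 (*Cldn10*, NM11) to 14.2 (*Krt7*, NM11). The lowest signals flagged well above background were 26.4 in Colon26, 20.1 in LuM1 and 19.6 in NM11. A further and looser flag, that a spot differs from background at all, was absent on all 3 arrays for 5 of the 17: *Cldn3*, *Cldn5*, *Cldn8*, *Cldn23* and *Dsp*. Among all named genes it was absent for 4114 of the 8083 measured in no line, a larger share than in the members. A signal below the flag leaves an upper limit and does not show that a gene was silent.

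**Figure D1:**
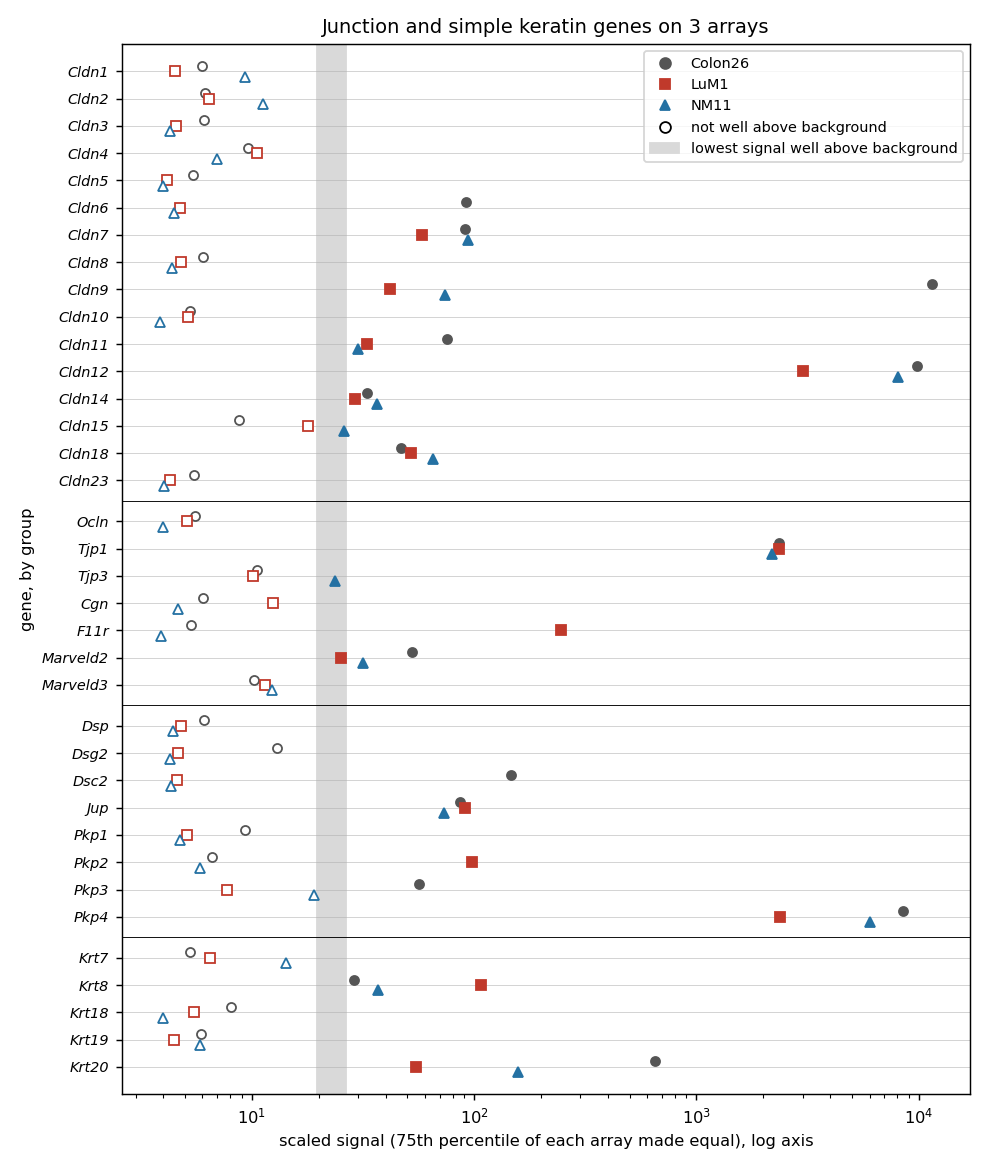
Scaled signal (log axis) of the representing probe of each of the 36 genes in Colon26 (circles), LuM1 (squares) and NM11 (triangles). Filled symbols are well above background, open symbols are not, and the grey band spans the lowest such signals of the arrays (19.6 to 26.4). In all, 17 genes have open symbols in all 3 lines, and *Cldn9* has the widest gap between filled symbols. Signals of different genes cannot be ranked, because each probe binds with its own strength.

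The label of the parental line as colon adenocarcinoma was set against marker lists. Of 8 colon epithelium markers, *Cdx2*, *Lgals4* and *Gpa33* were measured in all 3 lines and *Cdx1*, *Vil1*, *Cdh17*, *Fabp1* and *Muc2* in none. The summed scaled signal of the 8 was 2219 in Colon26, 1165 in LuM1 and 1816 in NM11, and *Gpa33* supplied 1541, 814 and 1545 of it. *Cdx2*, at 443 in Colon26, was 1.91-fold lower in LuM1 and 2.65-fold lower in NM11, and *Lgals4*, at 198, 2.76-fold and 2.90-fold lower. *Gpa33* was 1.89-fold lower in LuM1 but unchanged in NM11 (log2 ratio 0.004), so the measured colon markers did not all fall in both sublines. The part of these markers in the junction genes' differences was not tested. *Cdh1* (E-cadherin), the cadherin that defines epithelial adherens junctions, was not well above background in any line, at 5.91 in Colon26, 4.65 in LuM1 and 4.29 in NM11. Of 9 mesenchymal markers, 8, 9 and 9 were measured in Colon26, LuM1 and NM11, *Vim* (vimentin) among them, and their summed signal was 507235, 553247 and 639424, of which *S100a4* supplied 270498, 297722 and 345490. Single markers differed far more than the sum. *Col1a2* gave 59896, 49.6 and 85275 in Colon26, LuM1 and NM11, *Thy1* 5.26 (not well above background), 19560 and 15416, and *Col3a1* 294, 1170 and 2655. Of 5 endothelial markers 1 was measured in each line. Of 6 leukocyte markers 3, 5 and 3 were measured, with a summed signal of 1513, 6620 and 1569, and *Ptprc*, which defines leukocytes, was not measured in any. *Cd68* supplied 5251 of the sum in LuM1, against 172 in Colon26 and 299 in NM11. LuM1 thus stood apart in leukocyte markers as well as in the junction genes below, and the part of this in those genes was not tested.

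**Figure D2:**
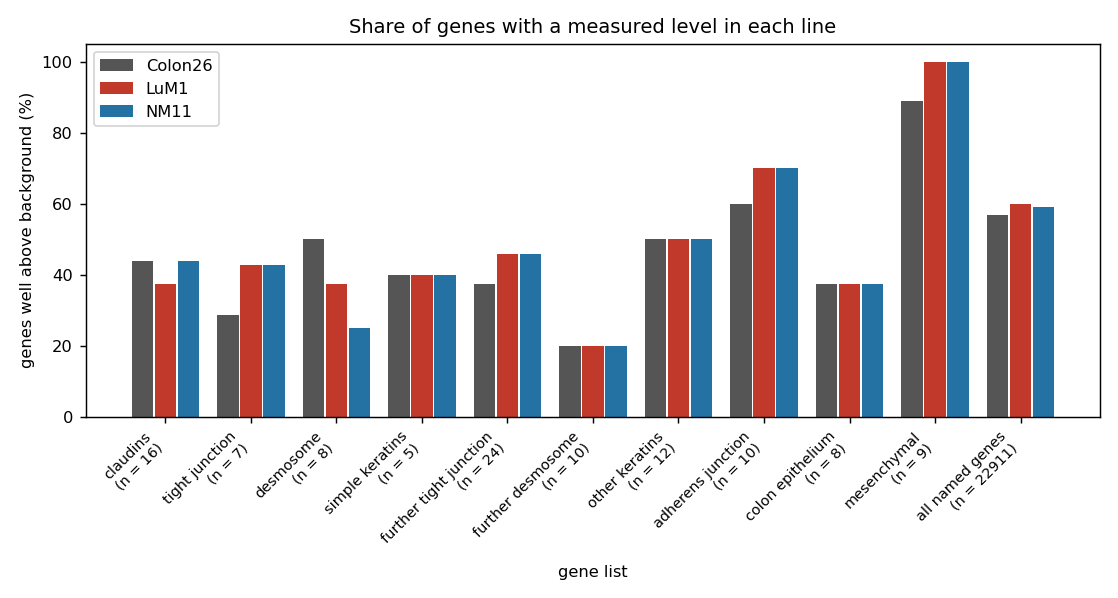
Percentage of genes well above background in each line (bars) for the 4 groups of member genes, for 4 lists of related junction and keratin genes, for colon and mesenchymal markers, and for all named genes, with the number of genes in each list. All 4 member groups lie at 50% or less in every line, and all genes lie between 56.9% and 59.9%.

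The sublines differ in metastatic potential, and each was compared with the parental line and with the other. Comparisons used the log2 ratio of scaled signals. Where only 1 line was well above background, its signal was divided by the lowest well-measured signal of the other array, so that such a ratio is a bound and is written "at least". A difference of at least 2-fold was counted, without a test. Against Colon26, LuM1 was lower in 9 of the 17 members measured in either line (52.9%) and higher in 3 (17.6%). Over 14353 genes measured in either line, 11.7% were lower and 12.9% higher. NM11 was lower than Colon26 in 6 of 17 members (35.3%) and higher in 0, against 7.74% lower and 8.18% higher of 14109 genes. Both of these comparisons use the same Colon26 array, so a low or high spot there enters both.

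Over the 12 members with a level on both arrays, the median log2 ratio was -0.86 for LuM1 over Colon26 (all genes -0.13), with 8 of the 12 below 0, against 7231 of 12397 among all genes. For NM11 over Colon26 it was -0.26 (all genes -0.02), again with 8 of 12 below 0, against 6480 of 12471. Between the sublines, LuM1 was higher than NM11 in 3 of 16 members and lower in 3, against 11.1% higher and 8.5% lower of 14415 genes. The 3 higher were *F11r*, *Pkp2* and *Krt8*, and the 3 lower *Cldn12*, *Pkp4* and *Krt20*. Scaling to the housekeeping gene *Hprt* in place of the percentile left 0 lower and moved the median of this comparison from -0.33 to 0.26.

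**Figure D3:**
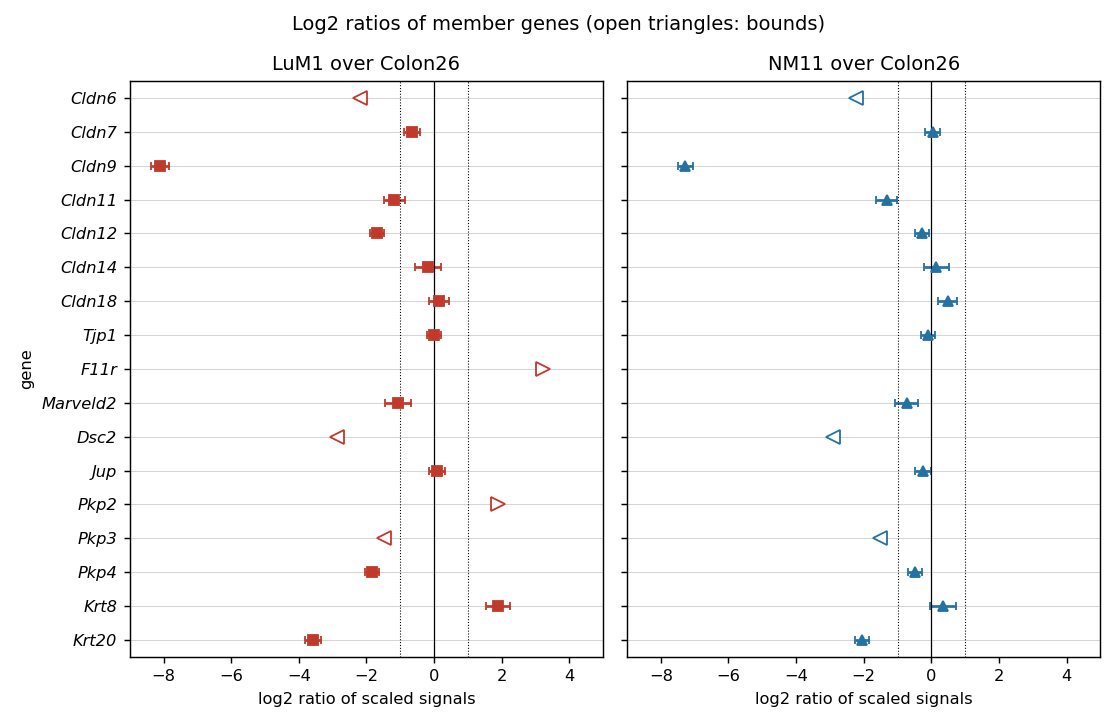
Log2 ratio of scaled signals, LuM1 over Colon26 (left) and NM11 over Colon26 (right), for the 17 member genes with a ratio in either panel. Filled symbols are levels on both arrays with the scanner error, open triangles are bounds pointing away from 0, and dotted lines mark 2-fold. *Cldn9* lies farthest from 0 in both panels, and *F11r*, *Pkp2* and *Krt8* lie beyond 2-fold on the right in the LuM1 panel, with no member there in the NM11 panel.

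Among the claudins, the strand-forming proteins, *Cldn9* had the widest range of any member. Its probe (A_51_P506961) gave 11445 ± 1145 in Colon26, 41.8 ± 6.17 in LuM1 and 73.6 ± 8.50 in NM11. The gene was bright in the parental line and dim in either subline, where the lowest well-measured signals were 20.1 (LuM1) and 19.6 (NM11). The level was 274-fold lower in LuM1 (log2 -8.10 ± 0.26) and 155-fold lower in NM11 (log2 -7.28 ± 0.22). No lower NM11 over Colon26 ratio existed among 12471 genes with a level on both arrays, and for LuM1 over Colon26 it ranked 3 from the bottom of 12397. Between the sublines the log2 ratio was -0.82 ± 0.27, which fell short of 2-fold except under quantile normalization. *Cldn9* had 1 probe, so no other probe could be compared. Around its spot 1 of 53 neighbouring spots was at least 2-fold brighter on the Colon26 array than on both others, against 3.15% over the array.

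*Cldn6*, a claudin of embryonic epithelia, was measured in Colon26 alone. Its probe (A_51_P423743) gave 91.6 ± 11.1 there, and 4.74 in LuM1 and 4.46 in NM11 were not well above background. It was at least 4.55-fold lower in LuM1 and at least 4.68-fold lower in NM11. *Cldn11*, known from myelin and Sertoli cell junctions, gave 75.1 ± 9.60 in Colon26, 33.1 ± 5.72 in LuM1 and 30.1 ± 5.34 in NM11. It was 2.27-fold lower in LuM1 and 2.50-fold lower in NM11, and neither difference reached 2-fold when background was corrected by another model (normexp), nor did that of LuM1 with the authors' table of rescaled values.

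*Cldn12* separated LuM1 from the other two lines. Its signal was 9766 ± 977 in Colon26, 3021 ± 302 in LuM1 and 8051 ± 805 in NM11. LuM1 was 3.23-fold below Colon26 and 2.66-fold below NM11, whereas NM11 and Colon26 differed by a log2 ratio of only -0.28 ± 0.20. The difference between the sublines fell short of 2-fold when scaled to *Hprt*.

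The remaining measured claudins stayed within 2-fold. *Cldn7*, common along the intestinal epithelium, gave 91.4, 58.1 and 93.6 in Colon26, LuM1 and NM11. *Cldn14* gave 33.0, 29.2 and 36.6, and *Cldn18*, known from stomach and lung, 46.8, 51.9 and 65.1. *Cldn15*, a pore-forming claudin of the intestine, was well above background in NM11 alone, at 25.9 ± 5.19, and 8.74 in Colon26 and 17.9 in LuM1 were not, so no 2-fold difference could be placed.

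Among the other tight junction genes, the adaptor *Tjp1* (zonula occludens 1) was level across the lines. It gave 2348 ± 235 in Colon26, 2362 ± 236 in LuM1 and 2178 ± 218 in NM11, and its other probe 440, 457 and 363. Log2 ratios to Colon26 were 0.01 and 0.06 for LuM1 and -0.11 and -0.28 for NM11.

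*F11r*, which encodes the junctional adhesion molecule JAM-A, was seen in LuM1 alone. Its probe (A_51_P458866) gave 245 ± 24.8 there, and 5.35 in Colon26 and 3.91 in NM11 were not well above background. LuM1 was at least 9.28-fold above Colon26 and at least 12.5-fold above NM11. Of 57 neighbouring spots 2 were measured on the LuM1 array alone, near the 3.49% found over that array.

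*Marveld2* (tricellulin, which seals the corners where cells meet) gave 52.7 ± 8.03 in Colon26, 25.2 ± 5.32 in LuM1 and 31.8 ± 5.44 in NM11. All 3 values lay close to the lower limit of measurement. LuM1 was 2.09-fold lower, a difference that fell short of 2-fold without scaling, with scaling to *Hprt*, under normexp and with the authors' table, and its other probe was not well above background on any array. *Tjp3* (zonula occludens 3) was measured in NM11 alone, at 23.7 ± 5.12, with 10.6 in Colon26 and 10.1 in LuM1. Its spot lay among others that were measured on the NM11 array alone (4 of 57 neighbours, against 2.14% over the array).

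In the desmosome group, the plakophilin genes differed from each other. *Pkp4* was bright in every line, at 8461 ± 846 in Colon26, 2374 ± 237 in LuM1 and 6047 ± 605 in NM11. LuM1 was 3.56-fold below Colon26 and 2.55-fold below NM11. All 3 of its probes gave nearly the same log2 ratio of LuM1 over Colon26, from -1.83 to -1.74. NM11 was also below Colon26 by all 3 probes but within 2-fold, with log2 ratios of -0.48 to -0.43, each with a scanner error of 0.20. The difference between the sublines fell short of 2-fold when scaled to *Hprt* and with the authors' table.

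*Pkp2* went the other way and was measured in LuM1 alone. Its probe (A_51_P225427) gave 98.3 ± 11, with 6.65 in Colon26 and 5.86 in NM11 not well above background. LuM1 was at least 3.72-fold above Colon26 and at least 5.02-fold above NM11, and the former fell short of 2-fold under normexp. *Pkp3* was measured in Colon26 alone, at 56.2 ± 8.29, against 7.71 in LuM1 and 19.1 in NM11, and was at least 2.79-fold lower in LuM1 and at least 2.87-fold lower in NM11. Neither difference of *Pkp3* reached 2-fold under normexp.

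*Dsc2*, the desmocollin of simple epithelia, also appeared in Colon26 alone, at 147 ± 15.8, against 4.59 in LuM1 and 4.34 in NM11. The bounds were at least 7.29-fold and at least 7.50-fold lower in the sublines. Its spot lay in a part of the Colon26 array where 5 of 56 neighbours were measured on that array alone, against 1.89% over the whole array. With such clustered spots left out, a choice made after seeing the data, *Dsc2* had no value in Colon26 and neither difference was counted. No spot of *Cldn6*, *Pkp3*, *F11r* or *Pkp2* lay in a cluster of this kind. *Jup* (plakoglobin, shared by desmosomes and adherens junctions) gave 86.7, 91.4 and 73.5 in Colon26, LuM1 and NM11 and stayed within 2-fold, and its other probe was not well above background.

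The keratins that could be measured differed from Colon26 in opposite directions in LuM1. *Krt20*, a type I keratin of differentiated intestinal cells, gave 651 ± 65.4 in Colon26, 54.5 ± 7.03 in LuM1 and 157 ± 16.3 in NM11 (probe A_52_P445360). The 3 lines were each more than 2-fold apart: LuM1 was 11.9-fold and NM11 4.14-fold below Colon26, and LuM1 was 2.88-fold below NM11. The last of these fell short of 2-fold when scaled to *Hprt* and under normexp.

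*Krt8*, the type II keratin of simple epithelia, gave 28.9 ± 6.36 in Colon26, 108 ± 11.6 in LuM1 and 37.1 ± 5.59 in NM11 (probe A_51_P242400). LuM1 was 3.72-fold above Colon26 and 2.90-fold above NM11, and both differences fell short of 2-fold under normexp. The Colon26 signal lay close to the lowest well-measured signal of that array, 26.4. NM11 and Colon26 differed by a log2 ratio of 0.36 ± 0.38, within the scanner error. *Krt18*, its usual type I partner, was not well above background in any line, at 8.03, 5.49 and 3.98 in Colon26, LuM1 and NM11.

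**Figure D4:**
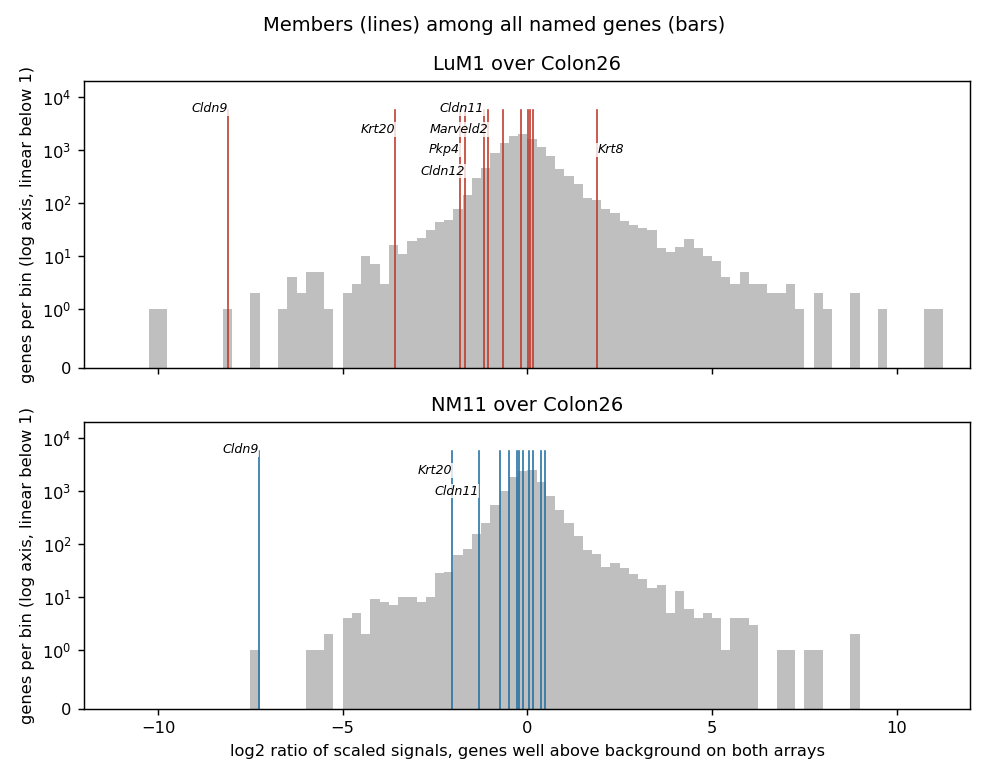
Number of named genes per bin of log2 ratio (grey bars, 0.25 wide, log axis) for genes with a level on both arrays, with the 12 members among them as coloured lines and those at least 2-fold apart named. Members beyond 2-fold in the NM11 panel are *Cldn9*, *Krt20* and *Cldn11*, all on the left. *Cldn9* stands in the outermost occupied bin on the left for NM11 over Colon26.

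Related genes were counted in the same way, in lists drawn up by function. Of 24 further tight junction genes with a probe, 9, 11 and 11 were measured in Colon26, LuM1 and NM11. LuM1 was higher than Colon26 in 1 of 11 measured in either line, *Lsr* (a tricellular junction receptor, at least 4.61-fold), and *Pard6b* was 7.73-fold lower. *Pard6b*, a polarity protein, gave 207 ± 21.4, 26.8 ± 4.88 and 51.7 ± 6.49 in Colon26, LuM1 and NM11.

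NM11 was higher than Colon26 in *Patj* and lower in *Pard6b*. The spot of *Patj*, at 209 ± 21.3 in NM11 alone, lay in a cluster on the NM11 array (6 of 55 neighbours), and none of its other probes passed the flag in any line. LuM1 was above NM11 in *Lsr* and *Magi1* and below it in *Prkci* and *Patj*.

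Of 10 further desmosome genes, 2 were measured in each line. *Ppl* (periplakin) was measured in LuM1 alone, at 68.5 ± 8.26, *Dsc1* in Colon26 alone, at 47.6 ± 7.47 by 1 of its 3 probes, and *Evpl* (envoplakin) in NM11 alone, at 47.6 ± 6.24. Of 12 other keratins, 6 were measured in each line. *Krt23* was measured in LuM1 alone, at 151 ± 15.7, at least 5.71-fold above Colon26 and at least 7.70-fold above NM11. *Krt80* was 4.17-fold lower in NM11 than in Colon26, at 130 ± 13.8 against 543 ± 54.6, and 329 ± 33.2 in LuM1. Its other probe fell short of 2-fold, at 111 in NM11 against 216 in Colon26 (1.94-fold lower).

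Of 10 adherens junction genes, 6, 7 and 7 were measured. *Nectin2*, a nectin of the adherens junction, was the 1 gene of this list higher in the sublines, at 193 ± 20.1 in Colon26, 2599 ± 260 in LuM1 and 3199 ± 320 in NM11. It was 13.5-fold and 16.6-fold above Colon26. *Ctnnb1* (beta-catenin) was 2.07-fold lower in LuM1 than in NM11, and *Epcam*, measured in LuM1 alone at 28.0 ± 5.18, had a bound within 2-fold. Of 9 epithelial splicing and transcription factors 3, 2 and 3 were measured, and *Grhl1* (grainyhead-like 1) was lower in both sublines than in Colon26, at least 2.67-fold in LuM1 and 2.13-fold in NM11.

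**Figure D5:**
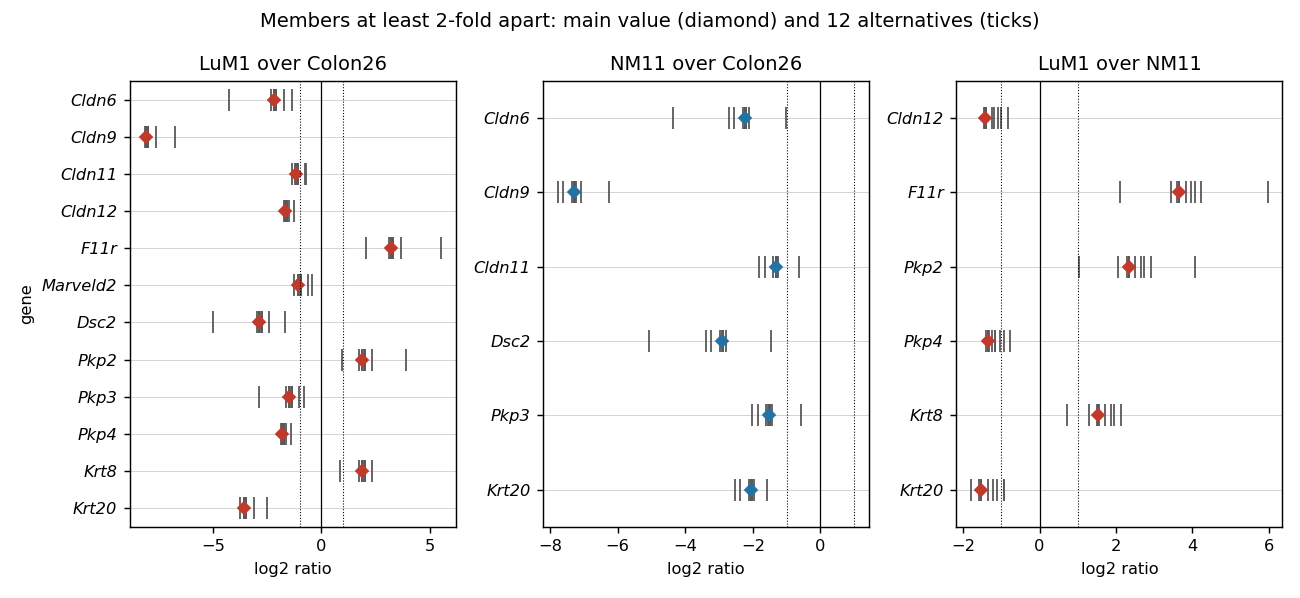
Log2 ratios of the member genes at least 2-fold apart in each of the 3 comparisons, as reported (diamonds) and under 12 other ways of scaling, background correction, detection and choice of probe or spot (ticks), with dotted lines at 2-fold. No tick lies on the other side of 0 from its diamond, and ticks inside 2-fold mark the settings under which a difference was no longer counted.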

How the data were processed

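The authors hybridised Cy3-labelled copy RNA of 3 lines, 1 array per line, to Agilent mouse arrays, all on 1 slide and in 1 scan. Per the submitters' processing notes, the scans were read with Agilent Feature Extraction 11.5.1.1. The deposited values used here are its processed signals, an intensity per spot with background already subtracted, with their error and flags. A further deposited table holds these intensity values multiplied by a constant (0.654 on the Colon26, 0.829 on the LuM1 and 0.706 on the NM11 array), whose origin is not given in the sources used here, and it was used as an alternative (the authors' table).

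Control and outlier spots were left out, repeated spots of a probe were averaged, and each array's 75th percentile over all non-control spots was scaled to the geometric mean of the 3 (585). Probe accessions named 32989 probes (58.3%) through RefSeq, without use of coordinates. A gene with several probes was represented by the one brightest on average on the log2 scale. Members and lists were chosen with earlier results of these data known. All members were to be named, and of other lists only genes at least 2-fold apart in some pair of lines, of which 1 is not reported here.

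Ratios were log2 differences of scaled signals, with the scanner errors of both spots combined. Differences were described, with no test, since no line had a replicate. The counting step was tested on simulated data, in which only genes with a mean signal well above the limit of measurement were shifted, by 4-fold. That test did not cover differences of dim genes or smaller differences. In all 14 alternatives were tried: no scaling, scaling to the median, to *Hprt* or to E1A spike-ins, quantile normalization, the 75th percentile over distinct probes, normexp (limma 3.58.1 in R 4.3.3, offset 50), the authors' table, a looser or no detection filter, the mean over probes, a 4-fold threshold, and clustered spots left out on the Colon26 array or on all arrays. The distinct-probe percentile and the removal of clustered spots were added after seeing the data. A spot was clustered where the share of neighbours within 50 pixels that were measured on that array alone was at least 3 times the share over the array. Computations used Python 3.11.15 with numpy 2.4.6 and pandas 2.3.3.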

Additional observations from a re-analysis of the deposited data

How the results depend on the processing

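No paired analysis was possible because each line had 1 array and the labels carry no replicate numbers. No value changed sign past 2-fold under any alternative: of 614 single-gene values recomputed, 477 stayed within the scanner error of the reported value, 137 moved beyond it and 0 reversed. A 4-fold threshold left 1 member higher and 4 lower in LuM1 than in Colon26, and 0 lower in LuM1 than in NM11. Scaling to *Hprt* gave a median log2 of members of -0.75 for NM11 over Colon26 and 0.26 for LuM1 over NM11, with 0 members lower in the latter. E1A spike-ins gave medians of -0.58 and -0.0073 for these comparisons, and quantile normalization -0.59 for LuM1 over NM11. Normexp left 1 member higher in LuM1 than in Colon26, with a median of -0.42. The authors' table gave medians of -0.41 for LuM1 over Colon26 and 0.082 for LuM1 over NM11. With the looser flag, 23, 25 and 23 members were measured in Colon26, LuM1 and NM11. It counted 5 members higher in LuM1 and 3 in NM11 than in Colon26, and 7 lower in LuM1 than in NM11, with a median of -0.17 for LuM1 over Colon26. With no filter these counts were 5, 3 and 7, with medians of -0.36 for LuM1 over Colon26 and 0.081 for LuM1 over NM11. Counts over all genes under these alternatives are not given here, so these member counts have no background to be read against.

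These scalings also moved the median of all genes: by -0.49 (*Hprt*) and -0.32 (E1A) for NM11 over Colon26, by 0.59, 0.32 and 0.41 (the authors' table) for LuM1 over NM11, and by 0.45 (the authors' table) for LuM1 over Colon26. The sign of the members' median between the sublines therefore depended on the scaling and the filter, and for ratios to Colon26 it was negative under every alternative tried. *Cldn6*, *Cldn9*, *Krt20* and, for LuM1, *Cldn12*, *Pkp4* and *F11r* were counted against Colon26 in all 12 alternatives at 2-fold that kept a detection filter. Signal over background limited the comparison, since 17 members had no signal well above background in any line.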

Other observations

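*Cldn6* and *Cldn9* are adjacent genes on chromosome 17 in RefSeq. Of their measured neighbours on that chromosome, most were lower in the sublines than in Colon26 and none by as much as *Cldn9*: the log2 ratio was -2.38 in LuM1 and -0.92 in NM11 for *Tnfrsf12a*, next to *Cldn6*, and -1.14 and -0.75 for *Pkmyt1*, next to *Cldn9*. Next outwards, *Hcfc1r1* gave -1.25 and -0.53 and *Paqr4* -0.83 and -0.91. *Thoc6* gave -0.33 and -0.21, and *9530082P21Rik*, on the other side, 0.58 and -0.01. None of these neighbours was 2-fold lower in NM11. Ratios below 0 were common over all genes with a level on both arrays: 7231 of 12397 for LuM1 over Colon26 and 6480 of 12471 for NM11 over Colon26. *Kremen2* and *Bicdl2* were not well above background in any line. *Krt20* and *Krt23* are neighbours on chromosome 11 and differed in opposite directions in LuM1, and *Krt8* and *Krt18* are neighbours on chromosome 15, where *Krt8* alone was measured. *Arhgap30*, 3 genes from *F11r* on chromosome 1, was likewise well above background in LuM1 alone, at a scaled signal of 1800 against 5.84 in Colon26 and 4.19 in NM11, and both genes between them, *Usf1* and *Tstd1*, were measured in all 3 lines. These genes were looked at after the values of the members were seen, and no test was made.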
